A study of Mus musculus with 8 samples.

Results

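Neurotransmitter genes were examined in vomeronasal epithelium, which lines the pheromone-sensing organ of the mouse nose. The set comprised 9 genes of GABA and glutamate signalling among the 48831 genes of the count files, and 7 of the 9 passed the filter on low counts that left 20601 genes for testing. Gad1 and Gad2 encode the enzymes that make GABA, and Slc32a1 encodes the carrier that loads GABA into synaptic vesicles. Slc17a6 and Slc17a7 encode vesicular glutamate transporters. Gabbr1 and Gabbr2 encode the subunits of the GABA-B receptor, and Slc1a2 and Slc1a3 encode glutamate uptake transporters. The genes were taken by function, except that Gad1 was chosen by its level in males and females in these same 8 libraries, where it differed. Its sex difference is therefore given as a description, with no test.

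Vomeronasal sensory neurons use glutamate as their transmitter and send their axons to the accessory olfactory bulb of the brain. Inhibitory neurons of the bulb release GABA, and GABA-B receptors on the sensory axon terminals are known in mice to dampen glutamate release. A neuron that releases GABA by the usual route needs a glutamate decarboxylase to make it and the vesicular carrier to package it, whereas the decarboxylases also occur in non-neuronal cells that do not form synapses. The cell bodies of the sensory neurons lie in the epithelium, so their transcripts are sampled here, while those of bulb neurons are not expected in this tissue.

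Libraries were made from whole tissue of C57BL/6J mice aged 8 weeks, with no allele or treatment named beyond that strain, and the 8 libraries formed 4 groups of 2. Each of the 2 male and 2 female pools held non-flushed tissue of 2 mice, whereas the 2 flushed males and 2 flushed females were single mice whose tissue is described as flushed, which clears blood from the vessels. One extraction protocol, which speaks of heparin flushing, is given for all 8 libraries. It conflicts with the non-flushed description of the pools, and the latter was followed here. Flushing, the number of mice in a library and the sequencing lane move together in the labels and cannot be told apart. Single mice keep the numbers of their labels (flushed females 2 and 3, flushed males 1 and 3), and pools were numbered in listed order.

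Total counts ranged from 18763557 to 22096792 in pools and from 22101913 to 24965088 in flushed single mice. Omp, a marker of mature chemosensory neurons, had between 7024 and 10324 counts in each library, and the G protein genes Gnai2 and Gnao1 of the apical and basal neuron layers had at least 3331 and 995. Trpc2, the transduction channel gene, was listed at 0 in all 8 libraries. It lies within the same-strand gene Xntrpc, which had 416 to 692 counts, and reads that overlapped more than 1 gene were not counted. In bulk tissue, fewer cells of a type and less RNA per cell cannot be told apart. Levels below are CPM, counts scaled to a common library size, or RPKM, the same per kilobase of exon, where genes are compared with each other. Some reads shared with other loci were divided between them, so counts were not whole in 4 libraries for Gad1, 5 for Gabbr1, 3 for Slc1a2 and 1 for Slc1a3.

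Sequences before the RefSeq start are shown for 4 genes that span the range from present to undetected: Gad1 and the GABA carrier gene Slc32a1, and the transporter genes Slc17a6 and Slc17a7. RefSeq windows of build GRCm38.p6 matched all 9 genes. Each sequence covers up to 250 bases before that start, cut short where an exon of the files' annotation begins, with CpG dinucleotides in capitals. All 4 are on the plus strand, at chr2:70561879-70562041, chr2:158610508-158610757, chr7:51621580-51621829 and chr7:45163671-45163920. In the files' annotation Gad1 begins farther upstream, at 70553072, so the Gad1 stretch lies between exons of the gene as counted, and Slc32a1, Slc17a6 and Slc17a7 begin after their stretches.
Gad1: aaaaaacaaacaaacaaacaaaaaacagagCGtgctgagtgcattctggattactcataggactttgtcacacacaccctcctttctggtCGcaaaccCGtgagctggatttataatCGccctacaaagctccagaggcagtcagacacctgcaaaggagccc
Slc32a1: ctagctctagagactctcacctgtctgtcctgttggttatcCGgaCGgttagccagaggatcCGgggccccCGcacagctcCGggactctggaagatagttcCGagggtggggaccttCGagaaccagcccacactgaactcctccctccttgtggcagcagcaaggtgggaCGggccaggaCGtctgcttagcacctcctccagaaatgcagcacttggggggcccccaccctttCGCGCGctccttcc
Slc17a6: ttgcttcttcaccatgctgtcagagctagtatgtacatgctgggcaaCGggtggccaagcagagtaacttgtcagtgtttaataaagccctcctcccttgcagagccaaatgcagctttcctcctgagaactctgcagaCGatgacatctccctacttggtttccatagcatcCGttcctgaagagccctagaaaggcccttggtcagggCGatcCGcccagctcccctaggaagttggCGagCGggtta
Slc17a7: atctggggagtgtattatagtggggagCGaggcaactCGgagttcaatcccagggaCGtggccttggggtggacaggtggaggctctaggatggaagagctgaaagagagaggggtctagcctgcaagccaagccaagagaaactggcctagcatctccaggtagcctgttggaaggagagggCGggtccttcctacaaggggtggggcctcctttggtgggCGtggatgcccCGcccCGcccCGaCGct

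The Gad1 stretch of 163 bases held 4 CpG dinucleotides, or 2.45 per 100 bases. The stretches of 250 bases held 12 in Slc32a1 (4.8 per 100 bases), 9 in Slc17a7 (3.6) and 7 in Slc17a6 (2.8). The median over 27025 upstream windows was 2.4 per 100 bases. Among all 9 members the stretches of the well-expressed genes Gabbr2 (16.5 per 100 bases, over 91 bases) and Gabbr1 (6.4) held the most. The same windows, whole and on both strands, were searched for TAATTA, a core bound by many homeodomain factors. It was in 1 of 10 member windows, at a second start of Slc17a6, and in 4.9% of all windows.

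The 9 genes covered a wide range of levels. By mean RPKM over the 8 libraries the order was Slc17a6 (9.19 ± 1.5, SD, n = 8), Gabbr1 (8.93 ± 0.547), Gabbr2 (5.85 ± 0.699), Slc1a3 (2.35 ± 0.186), Gad1 (1.83 ± 0.640), Slc1a2 (0.389 ± 0.161), Gad2 (0.198 ± 0.0455), Slc17a7 (0.0277 ± 0.0505) and Slc32a1 (0). Slc17a6 lay above 75.5% of tested genes by mean RPKM, Gabbr1 above 75%, Gabbr2 above 63.4%, Slc1a3 above 39.6%, Gad1 above 34.1%, Slc1a2 above 9.7% and Gad2 above 3.9%. The transporter of glutamate into vesicles and the GABA-B receptor subunits thus stood at the top, and the GABA-producing and GABA-packaging genes lower down.

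Neighbours in that order did not always separate. Slc17a6 exceeded Gabbr1 in 4 of 8 libraries, the 4 flushed single mice, and was below it in the 4 pools. Slc1a3 exceeded Gad1 in 7 of 8 libraries, with flushed male 3 the exception (2.36 against 2.71 RPKM). Slc1a2 exceeded Gad2 in all 8, although their ranges overlapped, and Gabbr1 exceeded Gabbr2, Gabbr2 exceeded Slc1a3, and Gad1 exceeded Slc1a2 with no overlap.

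**Figure D1:**
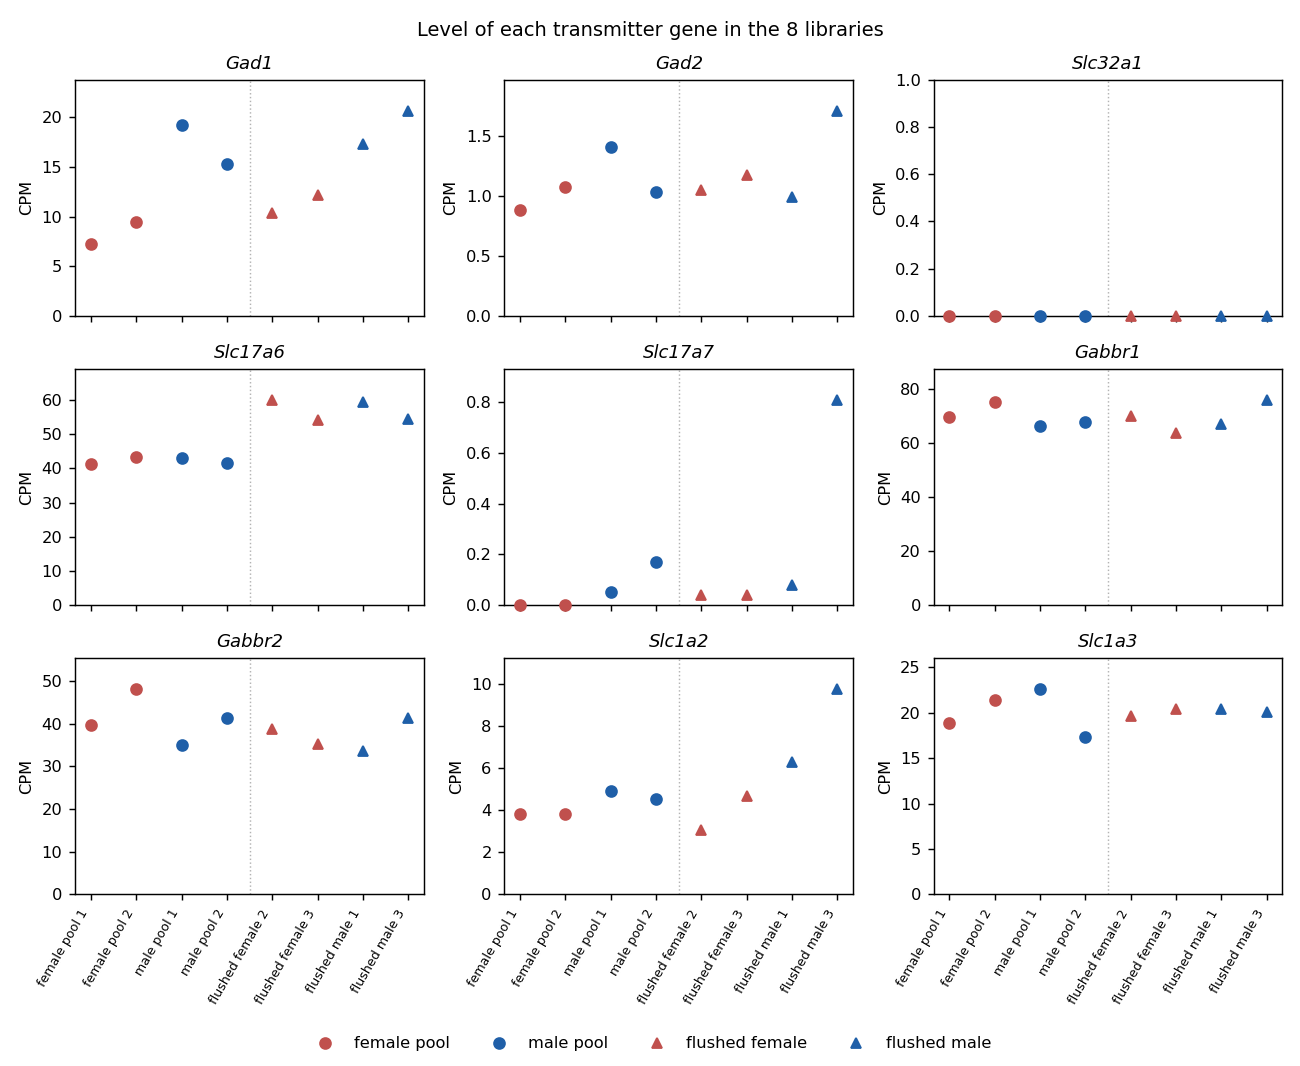
Level of each of the 9 genes in CPM (vertical axis, linear, from 0) in each of the 8 libraries (horizontal axis); circles are non-flushed pools, triangles flushed single mice, red female and blue male. Gad1 separates the sexes, Slc17a6 separates the preparations, and Slc17a7 is above 0.2 CPM in flushed male 3 alone.

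Gad1 (ENSMUSG00000070880, chromosome 2, 70553072 to 70602014, plus strand, GRCm38) was the main GABA-synthesis gene of the tissue. Its level was 19.2 and 15.3 CPM in male pools 1 and 2 and 17.3 and 20.7 CPM in flushed males 1 and 3. In females it was 7.24 and 9.43 CPM in pools 1 and 2 and 10.4 and 12.2 CPM in flushed females 2 and 3. Every male library was above every female library, within pools and within flushed mice as well as across them.

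The male mean was 18.1 ± 2.33 CPM and the female mean 9.81 ± 2.06 CPM (SD, n = 4 each). The additive fit gave a 1.86-fold higher level in males (log2 difference 0.89, SE 0.13). Since this contrast chose the gene, no p-value is given, and the 0.116% of tested genes that passed in this contrast are stated without reading anything from them. The difference was 2.07-fold in pools and 1.68-fold in flushed mice, and the interaction of sex and preparation had a log2 size of -0.30 (SE 0.25, edgeR unadjusted p = 0.25). Without any 1 library the log2 sex difference was between 0.80 and 0.98.

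Some gland markers passed by sex and none of the listed blood markers did, beside 0.116% of all tested genes. With so small a share, a count of 0 in a short list shows nothing about blood. The median log2 sex difference of the tested gland markers was 0.23. The summed level of 16 gland and secretory markers was 117600 to 169300 CPM in males and 80420 to 111900 CPM in females, with no overlap. Lcn4 and Obp2a, secreted lipocalins of the nasal glands, were the 2 of 14 tested markers that rose in males, by log2 0.53 and 0.57 (edgeR adjusted p = 0.028 and 0.03), and Prol1 of that list was listed at 0 in all libraries. Of 10 erythroid markers 0 passed by sex, with a median log2 difference of 1.36, and their summed level was 1903 and 2095 CPM in male pools, 1680 and 1722 CPM in female pools, 631.7 and 642.0 CPM in flushed males and 136.9 and 128.2 CPM in flushed females. Of 7 platelet markers 0 passed, with a median of 0.86, and their summed level was 20.02 to 33.1 CPM in males and 7.44 to 39.3 CPM in females. The part of gland tissue or blood in the Gad1 difference was not tested.

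The preparation difference of Gad1 was smaller than its sex difference. Its level was 12.8 ± 5.46 CPM in pools and 15.1 ± 4.72 CPM in flushed mice (n = 4 each), with overlapping ranges. The log2 difference of 0.28 (SE 0.13) did not pass (edgeR adjusted p = 0.089). It was 0.46 in females and 0.13 in males. Without male pool 1 it was 0.41 and passed (edgeR adjusted p = 0.031).

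Gad2 (ENSMUSG00000026787, chromosome 2, 22622205 to 22693874, plus strand), which encodes the second GABA-synthesizing enzyme, passed the filter but was sparsely counted, with 18 to 38 counts per library. Its level was 1.41, 1.03, 0.991 and 1.71 CPM in male pools 1 and 2 and flushed males 1 and 3, and 0.886, 1.07, 1.05 and 1.18 CPM in female pools 1 and 2 and flushed females 2 and 3. The sexes overlapped, and flushed male 3 was the highest, as it was for Gad1. The sex difference (log2 0.29, SE 0.24, edgeR adjusted p = 0.817) and the preparation difference (log2 0.16, SE 0.24, edgeR adjusted p = 0.603) did not pass.

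Per length of exon, Gad1 exceeded Gad2 in every library, by 5.96-fold in female pool 1 at the least and by 12.8-fold in flushed male 1 at the most. The ratio did not differ detectably between flushed mice and pools (difference of log2 ratios 0.15, two-sided exact permutation test over libraries, p = 0.6, adjusted over 3 ratios 0.6, smallest possible p 0.029). Sex was not compared for this ratio, because Gad1 enters it.

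Slc32a1 (ENSMUSG00000037771, chromosome 2, 158610767 to 158615748, plus strand), whose product packages GABA and glycine, had 0 counts in all 8 libraries. With 174117149 counts in all, a count of 0 allows a level of up to 0.0172 CPM over the libraries together, counting error only. Its sole overlapping gene, Gm14205, lies on the other strand, and counting was stranded. The plasma membrane GABA carriers described here were also scarce, with at most 4 counts of Slc6a11, 10 of Slc6a12 and 8 of Slc6a13 in any library, and none of these 3 was tested. Gad1 transcripts were thus measured in every library in which no transcript of the vesicular carrier was counted.

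The GABA-breakdown enzymes were present at levels above the synthesis genes. Aldh5a1, succinate semialdehyde dehydrogenase, had a mean of 3.71 RPKM and Abat, GABA transaminase, one of 3.04 RPKM. Neither passed by sex (log2 0.17 and 0.10, edgeR adjusted p = 0.661 and 0.802) or by preparation (0.18 and 0.01, edgeR adjusted p = 0.0973 and 0.931).

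Markers of central GABAergic neurons gave a mixed picture. Dlx1 had 0 to 6 counts, Dlx2 0 to 2 and Sst 1 to 6, all under the filter, while Dlx5 had 106 to 153 and Dlx6os1 2401 to 5705 counts. The summed level of the 12 markers was 789.6 to 963.2 CPM in males and 793.2 to 1003.0 CPM in females, with overlap. Most of its counts came from Calb2 (8553 to 13051 per library), Dlx6os1 and Meis2 (2261 to 3871). The sum therefore follows these abundant genes and cannot show how the scarce markers compare with Gad1.

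Slc17a6 (ENSMUSG00000030500, chromosome 7, 51622006 to 51671119, plus strand), the vesicular glutamate transporter of many peripheral sensory neurons, was the member that changed with preparation. Its level was 43.1 and 41.7 CPM in male pools 1 and 2 and 41.2 and 43.3 CPM in female pools 1 and 2. It was 60.01 and 54.0 CPM in flushed females 2 and 3 and 59.5 and 54.3 CPM in flushed males 1 and 3. All flushed libraries lay above all pools, and neither sex stood apart.

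The mean rose from 42.3 ± 1.04 CPM in pools to 56.9 ± 3.24 CPM in flushed mice (SD, n = 4 per preparation), or 1.35-fold by the additive fit (log2 0.43, SE 0.06, edgeR adjusted p = 0.00026). The difference was 0.45 in females and 0.41 in males, and it passed without any 1 library (log2 0.39 to 0.46, edgeR adjusted p of 0.00164 at most). It was the 1 of 7 tested members higher in flushed mice, against 22.6% of all tested genes, and 0 of 7 were lower, against 22.9%. Changes in this contrast were therefore common, and the third quartile of the log2 difference over all genes was 0.31. Sex had no detectable effect on Slc17a6 (log2 0.00, SE 0.06, edgeR adjusted p = 0.999).

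Neuron markers were not higher in sum. The summed level of 12 common vomeronasal neuron markers was 1150 to 1409 CPM in pools and 1128 to 1229 CPM in flushed mice. Of the 11 tested, 1 was higher and 2 were lower, beside 22.6% and 22.9% of all tested genes. Neither count exceeded those shares. Gnai2 fell (log2 difference -0.36, edgeR adjusted p = 0.01). With the library size taken over these neuron markers, the median log2 difference of all genes moved from -0.02 to 0.12, and that of Slc17a6 was 0.56 (edgeR adjusted p = 0.00057). Summed erythroid markers were at 1680 to 2095 CPM in pools and 128.2 to 642.0 CPM in flushed mice, and 10 of 10 fell. Summed matrix fibroblast markers were at 35850 to 46490 CPM and 17160 to 22840 CPM, and 5 of 8 fell while 2 rose. The part of these shifts in the Slc17a6 difference was not tested.

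Slc17a7 (ENSMUSG00000070570, chromosome 7, 45163949 to 45176142, plus strand), the transporter of many cortical glutamatergic neurons, was almost undetected. It had 1 and 3 counts in male pools 1 and 2, 0 in both female pools, 1 in each flushed female, 2 in flushed male 1 and 18 in flushed male 3. The 18 counts of flushed male 3 made up most of the 26 counts in all libraries. Slc17a6 exceeded Slc17a7 per length by 62.9-fold in flushed male 3 and by 184-fold to 804-fold elsewhere, as ratios of RPKM with 0.01 added to each.

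Other genes of brain synapses were high in the same library. Among 86 pathway genes with a count of at least 10 in some library, 3 were at least 2-fold above every other library in flushed male 3 and 0 in each of the other 7. Besides Slc17a7 these were Grin2b, an NMDA receptor subunit gene (56 counts, and 7 to 24 elsewhere), and Grm5, a metabotropic glutamate receptor gene (11 counts, and 0 to 2 elsewhere), named after their values were seen. Markers of central glutamatergic neurons were near 0 there too, with 6 counts of Tbr1 and 1 each of Neurod6 and Neurod2. Neurod6 and Neurod2 had 0 counts in each of the other libraries.

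Gabbr1 (ENSMUSG00000024462, chromosome 17, 37045966 to 37075067, plus strand), the ligand-binding subunit of the GABA-B receptor, varied little between libraries. Its level was 66.2, 67.6, 69.6 and 75.1 CPM in male pools 1 and 2 and female pools 1 and 2. In flushed females 2 and 3 and flushed males 1 and 3 it was 69.7, 63.7, 67.0 and 75.8 CPM. The groups overlapped by sex and by preparation. The log2 difference was -0.01 by preparation (SE 0.07, edgeR adjusted p = 0.90), 0.13 with the library size over neuron markers, and -0.01 by sex (SE 0.07, edgeR adjusted p = 0.996).

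Gabbr2 (ENSMUSG00000039809, chromosome 4, 46662305 to 46991873, minus strand), the subunit that couples the receptor to G proteins, ranged from 35.0 to 48.1 CPM in pools and from 33.5 to 41.2 CPM in flushed mice. It did not pass by preparation (log2 -0.14, SE 0.10, edgeR adjusted p = 0.266, and 0.01 with the library size over neuron markers) or by sex (-0.10, SE 0.10, edgeR adjusted p = 0.863). Gabbr1 exceeded Gabbr2 by 1.35-fold to 1.72-fold per length in all 8 libraries. This ratio was not detectably different between preparations (difference of log2 ratios 0.12, exact permutation p = 0.17, adjusted over 3 ratios 0.51).

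Auxiliary KCTD proteins bind the GABA-B receptor and set its kinetics. Kctd12, at 29.0 RPKM, was more abundant per length than either receptor subunit. Kctd12b was higher in flushed mice (10.6 ± 1.93 CPM in pools against 14.0 ± 1.24 CPM, log2 0.39, SE 0.13, edgeR adjusted p = 0.0272). It was the 1 of 6 genes of the receptor and its partners that rose (16.7%), with 0 lower. Over all tested genes 22.6% were higher and 22.9% lower.

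Slc1a2 (ENSMUSG00000005089, chromosome 2, 102658659 to 102790784, plus strand), the main glutamate transporter of brain astrocytes, was low and uneven. Its level was 4.92 and 4.55 CPM in male pools 1 and 2, 3.81 and 3.83 CPM in female pools 1 and 2, 3.05 and 4.66 CPM in flushed females 2 and 3, and 6.28 and 9.76 CPM in flushed males 1 and 3. Flushed male 3 again had the highest value, and males were above females within each preparation but not across both.

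The sex difference of Slc1a2 was larger than that of the other tested members apart from Gad1 but did not pass (6.38 ± 2.38 CPM in males, 3.84 ± 0.659 CPM in females, log2 0.70, SE 0.21, edgeR adjusted p = 0.435). It was 1.05 in flushed mice and 0.31 in pools, and the interaction was 0.74 (SE 0.37, edgeR unadjusted p = 0.075). Without flushed male 3 the sex difference was 0.48. Without a filter on low counts it passed (log2 0.70, edgeR adjusted p = 0.00042), and DESeq2 with the filter gave an adjusted p of 0.157. The preparation difference of 0.40 (SE 0.21, edgeR adjusted p = 0.147) did not pass, and it passed without flushed female 2 (0.57, edgeR adjusted p = 0.040).

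Slc1a3 (ENSMUSG00000005360, chromosome 15, 8634124 to 8710764, minus strand), the uptake transporter of radial glia and many astrocytes, was level across the study. It ranged from 17.3 to 22.6 CPM in pools and from 19.6 to 20.5 CPM in flushed mice. The log2 difference was 0.01 by preparation (SE 0.09, edgeR adjusted p = 0.956) and 0.01 by sex (SE 0.09, edgeR adjusted p = 0.997). The ratio of Slc1a3 to Slc1a2 per length ran from 3.14 in flushed male 3 to 9.52 in flushed female 2 (flushed minus pool, log2 -0.33, exact permutation p = 0.43, adjusted over 3 ratios 0.60). The same-strand model Gm37310, with 45 to 74 counts, overlaps Slc1a3, so some of its reads may not have been counted.

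Of the 6 tested members other than Gad1, 0 passed by sex with edgeR, beside 0.116% of all tested genes. DESeq2 and limma-voom also called 0 of the 6. With so small a share over all genes, a count of 0 shows nothing about the members. Slc1a2 was the 1 with an unadjusted edgeR p under 0.05. The median log2 sex difference of these 6 was 0.00, and that over all genes was -0.00. By preparation the 7 tested members had a median of 0.16, against -0.02 over all genes. In the interaction 0 of 7 passed, against 0.0485% of all genes, and 0 had an unadjusted p under 0.05.

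**Figure D2:**
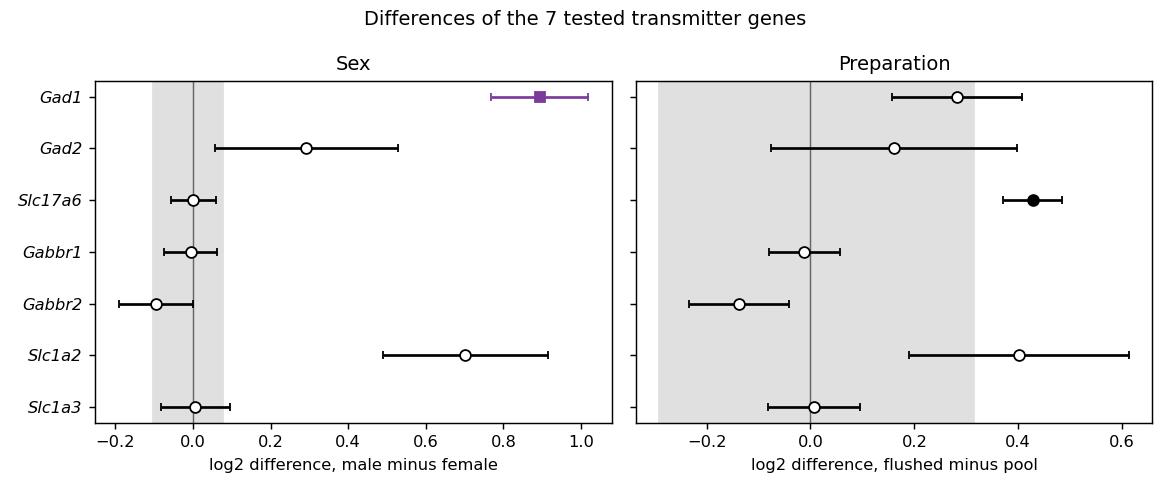
Log2 difference of each of the 7 tested genes (rows) by sex, left, and by preparation, right, from the additive edgeR fit over 8 libraries; bars are 1 SE, filled circles passed at an adjusted p of 0.05, the purple square is the untested sex difference of Gad1, and the grey band spans the quartiles over all 20601 genes. Slc17a6 is the filled point, at 0.43 by preparation.

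Other genes of the same pathways were compared from lists drawn up by function. Of 104 genes other than the 9 above, 70 were tested. By preparation 16 rose and 8 fell in flushed mice (22.9% and 11.4% of the 70), beside 22.6% and 22.9% of all genes, and their median log2 difference was 0.13. With the library size over neuron markers the split was 22 higher and 1 lower (all genes 5181 and 2078), with a median of 0.26 beside 0.12 over all genes. By sex 0 of 70 passed with edgeR, DESeq2 or limma-voom, beside 0.116% of all tested genes with edgeR. At that share a count of 0 shows nothing about these genes. An unadjusted edgeR p under 0.05 by sex was seen for 6. The count of lower genes was 4 without flushed female 2 and 5 without flushed male 1.

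Of the glutamate supply genes that passed, all but Got2 were higher in flushed mice. Of 6 tested enzyme genes 1 rose and 1 fell, and of 4 glutamine carrier genes 2 rose and 0 fell. Over all tested genes 22.6% were higher and 22.9% lower, and lists this short were not read against those shares. The glutamine carrier gene Slc38a2 rose from 189.6 ± 9.03 to 243.9 ± 13.6 CPM (SD, n = 4 per preparation, log2 0.36, SE 0.06, edgeR adjusted p = 0.00114), and Slc38a1 rose as well (0.32, edgeR adjusted p = 0.0156). Got2, the mitochondrial aspartate aminotransferase, fell (log2 -0.27, edgeR adjusted p = 0.00599), a call lost with the library size over neuron markers (-0.13, edgeR adjusted p = 0.195). Slc1a1, the neuronal and epithelial glutamate uptake transporter, rose by log2 0.36 (edgeR adjusted p = 0.0464), which made it the 1 of 3 tested uptake genes that passed. Glul, glutamine synthetase, had the highest level of the pathway at 142.7 RPKM and did not pass (log2 0.21, edgeR adjusted p = 0.0552).

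Of the receptor genes that passed, 7 of 9 were higher in flushed mice, and the lists were not tested against each other. Over all tested genes 22.6% were higher and 22.9% lower. Of 9 tested GABA-A receptor subunit genes 4 rose (44.4%) and 0 fell. Among them were Gabre at log2 0.75 (6.08 ± 0.877 to 10.2 ± 0.979 CPM, edgeR adjusted p = 0.000244) and Gabrb1 at 0.74 (edgeR adjusted p = 0.000946). The most abundant subunit per length, Gabrp, a subunit known from epithelial tissues, had 9.91 RPKM and did not pass (log2 -0.10, edgeR adjusted p = 0.691). Of 16 tested ionotropic glutamate receptor genes 3 rose and 2 fell (18.8% and 12.5%). With so few genes in each list, these shares were not read further. The AMPA receptor gene Gria3 rose from 22.9 ± 3.31 to 38.4 ± 3.68 CPM (log2 0.75, SE 0.10, edgeR adjusted p = 0.000277), and the NMDA receptor gene Grin2a (0.51, edgeR adjusted p = 0.00618) and the kainate receptor gene Grik3 (0.54, edgeR adjusted p = 0.0106) rose as well. Grik5 (log2 -0.30, edgeR adjusted p = 0.00982) and Grin2d (-0.48, edgeR adjusted p = 0.0439) fell, and neither passed over neuron markers (-0.17 and -0.34, edgeR adjusted p = 0.298 and 0.145). Of 2 tested metabotropic glutamate receptor genes 0 passed.

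Of 18 tested release genes 4 were higher and 4 lower, or 22.2% in each direction, close to the 22.6% and 22.9% of all tested genes, so the counts show nothing about the list. Syt1, the calcium sensor of fast release, rose from 37.9 ± 1.47 to 54.0 ± 2.99 CPM (log2 0.51, SE 0.06, edgeR adjusted p = 0.000123), near the size of the Slc17a6 difference. Snap25, a SNARE protein gene (0.50, edgeR adjusted p = 0.000933), and Sv2b, a vesicle glycoprotein gene (0.50, edgeR adjusted p = 0.000505), rose too. Stx1a, the partner SNARE gene of Snap25 (log2 -0.39, edgeR adjusted p = 0.00598), Syp, the vesicle protein synaptophysin (-0.29, edgeR adjusted p = 0.0109), and Unc13a, a vesicle priming gene (-0.39, edgeR adjusted p = 0.0185), fell. With the library size over neuron markers 5 release genes were higher and 1 lower: Stx1a kept its call (log2 -0.24, edgeR adjusted p = 0.045), while Syp (-0.15, edgeR adjusted p = 0.143) and Unc13a (-0.24, edgeR adjusted p = 0.115) did not pass. Among 7 tested markers of other transmitters 1 fell, the glycine carrier gene Slc6a9 (-0.28, edgeR adjusted p = 0.0198), a call lost over neuron markers (-0.15, edgeR adjusted p = 0.361).

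**Figure D3:**
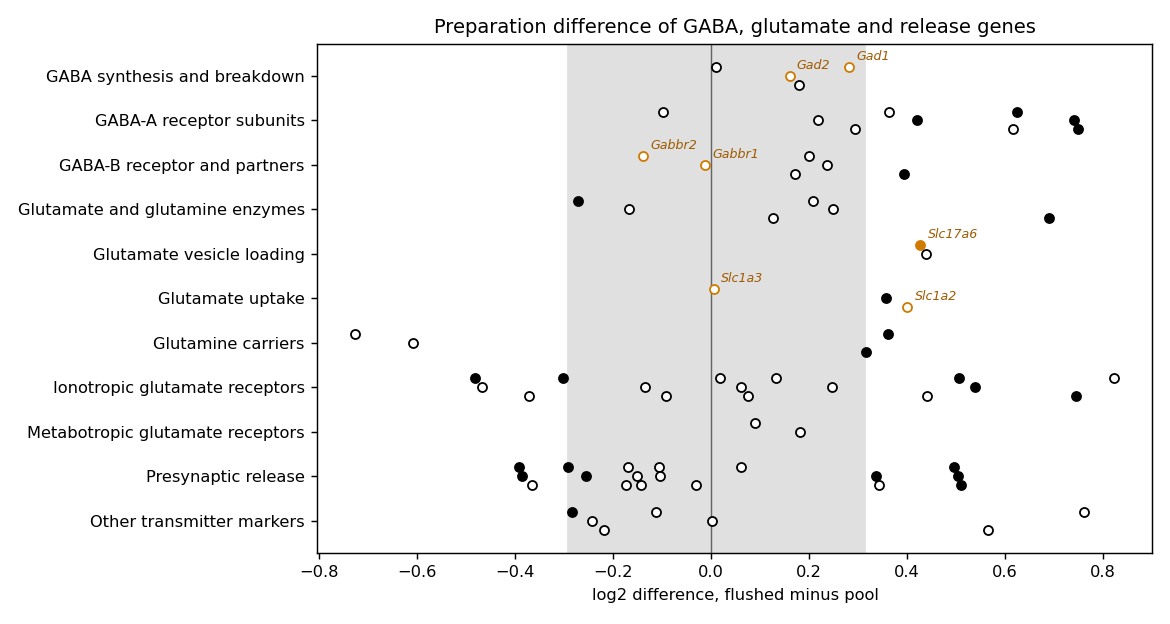
Log2 difference between flushed mice and pools (horizontal axis) for each tested gene of 11 functional lists (rows), from the additive edgeR fit; filled points passed at an adjusted p of 0.05, orange points are the genes described one by one, and the grey band spans the quartiles over all genes. GABA-A receptor genes that passed lie to the right, and release genes that passed lie on both sides.

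Profiles over the 8 libraries were compared among 13916 genes by the root mean square distance of log2(CPM + 0.5) after centring each gene on its mean. The genes nearest to Gad1 were B4galnt2 (distance 0.18), a glycosyltransferase gene, Etv1 (0.25), an ETS transcription factor gene, Nipal1 (0.26), Trpv6 (0.26), an epithelial calcium channel gene, and Elf5 (0.27), another ETS factor gene. The distance of Gad1 from a flat profile was 0.48. B4galnt2 ranged from 62.7 to 82.9 CPM in males and from 40.7 to 49.1 CPM in females, without overlap. Nipal1 and Trpv6 also did not overlap between the sexes, while Etv1 and Elf5 did. These values describe likeness in 8 libraries that were also used to pick Gad1.

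The nearest profiles to Slc17a6 were those of Ppp1r2, Mff and Tial1 (distances 0.03 to 0.04), with preparation differences of log2 0.39 to 0.47. Nearest to Slc1a2 were Vmn2r99, a vomeronasal receptor gene (0.22), B4galnt2 (0.25), which was also nearest to Gad1, and Etv5 (0.26). Nearest to Gad2 were Galnt17, Tet3 and Best3 (0.10 to 0.11). For Gabbr1 they were Pnck, Fbxl18 and Pde8a (0.03 to 0.04), for Gabbr2 Syt7, Plekhn1 and Fam193b (0.04 to 0.05), and for Slc1a3 Grb10, Tbx3 and Ano10 (0.06 to 0.07).

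**Figure D4:**
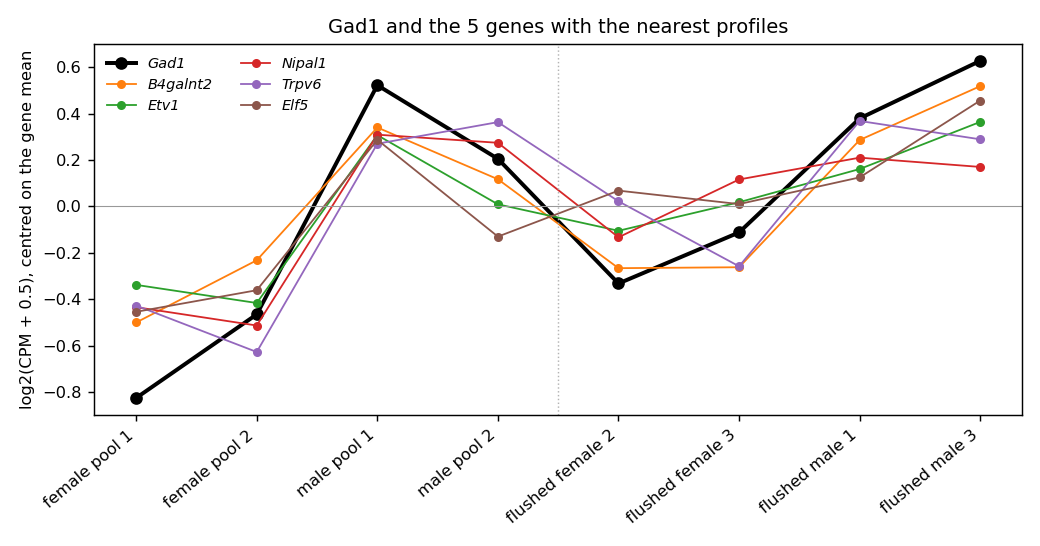
Profiles of Gad1 (black) and the 5 genes nearest to it over the 8 libraries (horizontal axis), as log2(CPM + 0.5) minus the mean of each gene (vertical axis); lines join the points of a gene and imply no order. Male libraries of Gad1 lie between 0.21 and 0.63 and female libraries between -0.83 and -0.11.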

How the data were processed

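Per the labels' protocols, the 8 libraries were stranded, polyA-selected and sequenced from one end for 100 nucleotides. STAR 2.7.1a, featureCounts 1.6.5 and build GRCm38 are named in the submitters' processing notes. No normalization was applied to the expected counts deposited by the authors, in which multimapping reads were split into fractions, per the file headers. Exons were counted on the reverse strand, and reads overlapping more than 1 gene were dropped, per the file headers. In each library 10.16 to 11.79% of genes had fractional values.

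Symbols came from GENCODE M21 (48336 of 48831 identifiers), and genes without a symbol held 0.0801% of counts. After rounding to whole numbers, edgeR 4.0.16 (R 4.3.3) tested sex and preparation as additive terms by its quasi-likelihood F test, with TMM and filterByExpr on 4 groups, and their interaction in a second model. Genes passed at a Benjamini-Hochberg adjusted p of 0.05 over all 20601 tested. The SE is the log2 difference over the square root of F. CPM are unrounded counts over the TMM-scaled library size, RPKM also over the exon length per the file headers. Ratios of RPKM took a pseudocount of 0.01 and exact permutation tests over 4 against 4 libraries. Alternatives used DESeq2 1.42.0, limma-voom 3.58.1, other scalings and filters, and fewer libraries. The model fits were checked on simulated counts.

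The genes and lists were chosen with earlier results of these data known. All 9 members are described. Of each pathway list, up to 3 genes that passed with the smallest p are named per direction, as are the 5 nearest profiles to Gad1 and 3 to each other member with a mean count of 20 or more. Likeness was measured over tested genes with a mean log2 CPM of at least 1, clone-named genes left out. A few genes that this rule takes are not reported here. Pathway genes named for their level and markers with their counts were picked after their values were seen. Replicates are separate mice or pools per the labels. Reads carry no molecular identifiers, so limits on counts cover counting error only.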

Additional observations from a re-analysis of the deposited data

Results flagged for a closer look

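Slc17a7 in flushed male 3, at 0.8097 CPM (18 counts), stood apart from the other 3 flushed libraries and from the other 3 male libraries, which had 1 to 3 counts. The gap to the nearest library was above the 95% critical value of Dixon's test for 4 samples. Gabbr1 in flushed male 3, at 75.83 CPM, stood apart from the other 3 male libraries by the same measure, although female pool 2 reached 75.1 CPM. In all 3 of 32 arms of 4 libraries were picked out this way, and chance picks out about 1 in 20.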

How the results depend on the processing

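No paired analysis was possible because flushed females are numbered 2 and 3, flushed males 1 and 3, and pools carry no number of their own, so the groups share fewer than 2 numbers. The Slc17a6 preparation difference kept its direction and its call under every alternative tried (log2 0.39 to 0.56), and the Gad1 sex difference, which chose that gene, ran from 0.75 to 1.05 under those that include it (with whole-count genes only it is left out). Near-zero sex differences changed sign. That of Slc17a6 was -0.028 with the library size over neuron markers, -0.0028 with no filter or with a CPM of 1 in at least 4 libraries, -0.007 within flushed mice and -0.0231 to 0.0332 with 1 library left out. That of Slc1a3 was -0.0173 over neuron markers, -0.009 within pools and -0.0718 to 0.0768 with 1 left out. That of Gabbr1 was 0.0955 within flushed mice and -0.0619 to 0.0431 with 1 left out, and that of Gabbr2 0.0068 within flushed mice. By preparation, Gabbr1 was at 0.1279 and Gabbr2 at 0.0094 over neuron markers, and Gabbr1 at 0.0175 with no filter, 0.0819 within males and -0.0698 to 0.0239 with 1 left out. With 1 left out Slc1a3 ran from -0.0463 to 0.1038, Gad2 from -0.0071 to 0.3132 and the Gad1 to Gad2 ratio from -0.022 to 0.291. None of these values passed.

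With no filter, members other than Gad1 higher in males numbered 2 (Slc1a2 and the sparsely counted Slc17a7), pathway genes higher in males 1 and in females 2, and members higher in flushed mice 3 (Slc17a6, Gad1 and Slc1a2). Over neuron markers 2 members were higher (Slc17a6 and Gad1) and 1 pathway gene lower. With 1 library left out members higher numbered 1 to 2, pathway genes higher 14 to 17 and lower 4 to 10. The second member was Gad1 without male pool 1, Slc1a2 without flushed female 2 and Slc17a7 without flushed male 1, where flushed male 3 is the lone library of its group and is assumed to vary like the others. With whole-count genes only, which leaves fewer genes, 10 pathway genes were higher and 3 lower; within females the counts were 10 and 2, and within males 2 were lower, each on 4 libraries. The causes of the other changes were not tested. Depth limits Gad2, Slc17a7 and Slc32a1, where small differences were not detectable.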
